A study of Mus musculus with 18 samples.

Results

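The 5′ untranslated region (5′ UTR) is the stretch of an mRNA between its 5′ end and the start codon. RNase-resistant peaks in 5′ UTRs were taken here as the peaks of the RNase-only libraries that shared at least 1 base with a 5′ UTR of a protein_coding GENCODE M21 transcript on their own strand. There were 800 such peaks among 30045 RNase-only peaks (2.66%), out of 82353 peaks in all 18 libraries of the series. Peaks that overlapped one another across libraries were merged, which left 430 regions over 407 genes.

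The samples were livers of mice 8 to 9 days old. Editing-deficient mice were Adar-/-; Mavs-/- double mutants, which lack the RNA editing enzyme ADAR1 and the adaptor MAVS, and the Mavs-/- mice lack the adaptor only, so that both genotypes lack Mavs. The double mutants had been backcrossed to Bl6J. The titles of the Mavs-/- samples call them wild-type, whereas their genotype field gives Mavs-/-. Total RNA was either left undigested (input), digested with RNase A and T1 (RNase-only), or digested after incubation with MDA5ΔCARD, a recombinant MDA5 without its CARD domains (MDA5-protected), each in 3 replicates per genotype. Every library has a list of peaks on GRCm38 with an area (the area under the significance curve of the peak) and its significance, and with the reads per peak not given the depth is unknown.

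As background, translation starts after a ribosomal subunit has scanned the 5′ UTR from the cap to the start codon, and stable helices or long GC-rich runs in the 5′ UTR slow that scan. RNase A cuts after unpaired pyrimidines and RNase T1 after unpaired G, so that base-paired RNA is cut poorly by either enzyme. MDA5 is the cytoplasmic sensor of long double-stranded RNA, and ADAR1 converts adenosine to inosine in such RNA.

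The regions found again and again were of different kinds, which the sequences at their summits show best. In the first set, RNase-only peaks lay upstream of the start codon in GC-rich sequence, and MDA5-protected peaks overlapped them in all 6 MDA5-protected libraries. Of the regions in at least 5 RNase-only libraries, 7 were of this kind with the summit in an exon. The 30 bases at the summit are shown for the 4 of them that hold a CGGCGG run there, while Kif13a, Mmp17 and Ap1ar held none, from the GENCODE M21 transcript on GRCm38, with each CGGCGG run in capitals.
Atp1b3, region chr9:96364307-96364433, minus strand, from base -232 to base -203 counted from the A of the start codon: ggggattggctgCGGCGGgcggagacgtca
Kcnmb4, region chr10:116473549-116474015, minus strand, from base -119 to base -90: cgcccactcccctgctgtcgcgCGGCGGcg
Fam69a, region chr5:107987009-107987189, minus strand, from base -75 to base -46: aggggcggggaggcCGGCGGgcggccgcgc
Nrf1, region chr6:30047929-30048053, plus strand, from base -291 to base -262: ctCGGCGGCGGCGGCGGCGGcagaggcggc
The GC content of these 4 stretches was 73.3%, 83.3%, 93.3% and 90.0%, in that order. No input peak overlapped any of the 4 regions. Since these regions resisted the RNases without MDA5, their MDA5-protected peaks do not by themselves show binding by MDA5.

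In the second set, the peaks lay around the start codon or in the first coding bases, the sequence was of ordinary GC content, and few or no MDA5-protected libraries had a peak. They are shown in the same way, with a start codon in capitals where the 30 bases hold it.
Slc26a3, region chr12:31447005-31447229, plus strand, from base -46 to base -17: tcaaagggcttccttcccactagccactgt
Tmem45b, region chr9:31428957-31429180, minus strand, from base -1 to base 28: gATGaattggcagcacagcaccatgtacct
Reg4, region chr3:98224654-98224843, plus strand, from base 4 to base 33: cttccaaaggcgtgcggctactcttactgc
Cldn7, region chr11:69965536-69966150, plus strand, from base 126 to base 155: gcccaggccatgtacaaggggctctggatg
Their GC content was 53.3% for Slc26a3, 50% for Tmem45b, 56.7% for Reg4 and 63.3% for Cldn7. The peaks of Slc26a3 and Cldn7 met an MDA5-protected peak in 1 library of 6, those of Tmem45b in 2 and those of Reg4 in none.

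Before the results, 1 library has to be set apart. The Mavs-/- RNase-only replicate 3 had the shortest list, with 3150 peaks against 3826 to 6094 in the other 5, and held 252 of the 800 peaks in 5′ UTRs. It had 278 peaks over a 5′ UTR on the strand opposite to the transcript, more than the 252 on the transcript's strand, whereas the other 5 RNase-only libraries had 17 to 69 opposite-strand peaks against 100 to 118 on the transcript's strand. Of its 5′ UTR peaks, 39.7% shared a base with a peak on the opposite strand of the same library, compared with 1.90% to 8.47% in the others. Without this library, 548 of 26895 RNase-only peaks (2.04%) lay in 5′ UTRs. The part of opposite-strand signal in the results below was not tested, and the genotype comparisons, the recurrence and the within-library differences that passed the test are also given without it.

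**Figure D1:**
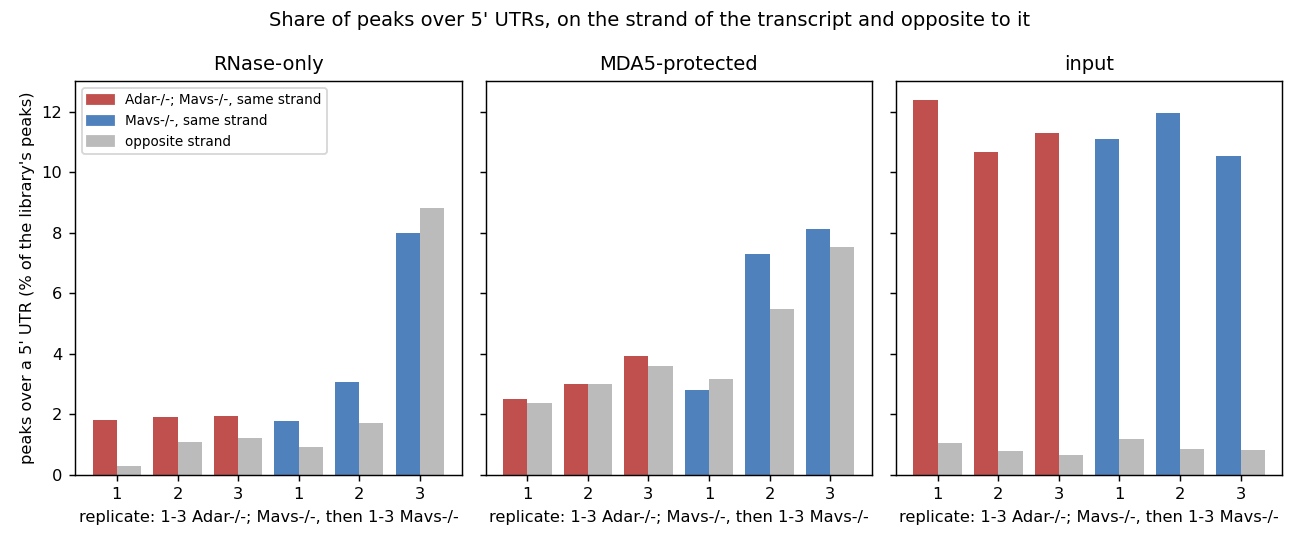
Peaks over a 5′ UTR as a percentage of all peaks of the library, for each of the 18 libraries (bars in color: same strand as the transcript, grey bars: opposite strand), with the fractions in separate panels. RNase-only libraries had 1.79% to 3.08% on the transcript's strand apart from Mavs-/- replicate 3 at 8%, and only that library and the MDA5-protected libraries had about as many peaks on the opposite strand.

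The 5′ UTR peaks were 105, 116 and 109 peaks in the editing-deficient replicates 1, 2 and 3, and 100, 118 and 252 in the Mavs-/- replicates 1, 2 and 3. As a share of the library's peaks this was 1.81%, 1.90% and 1.94% in the editing-deficient and 1.79%, 3.08% and 8% in the Mavs-/- libraries. In the input libraries, whose peaks mark abundant RNA, the share was 10.5% to 12.4%. The RNase-only share was lower than the input share of the same number and genotype in 6 of 6 pairs, with a mean difference of -8.24 ± 2.87 percentage points (SD, n = 6), which was significant in a two-sided exact permutation test of the signs (p = 0.031, the smallest that 6 pairs can give, adjusted p = 0.0469 over 6 comparisons). Since the peaks of the digested libraries were called against the input, places dense in input peaks lose RNase-only peaks by construction, and the test does not separate this from the digestion. Without Mavs-/- replicate 3 the difference was -9.38 points. Ignoring the strand took the difference to -6.70 points, and requiring the summit in the 5′ UTR took it to -1.87 points, each with an exact p of 0.0625.

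No difference between the genotypes passed the test in any of the 6 measures compared. The number of 5′ UTR peaks was 110 ± 5.57 (SD, n = 3) in the editing-deficient and 157 ± 83.1 (SD, n = 3) in the Mavs-/- libraries (exact permutation test, two-sided, p = 0.60), and without Mavs-/- replicate 3 the means differed by 1 peak. Their share of the library was 1.89% ± 0.0685 against 4.29% ± 3.27 (exact permutation p = 0.40), a difference of -2.41 points that became -0.553 points without Mavs-/- replicate 3. The median length of the peaks was 160 ± 26.1 nt against 168 ± 22.5 nt, with exact permutation p = 0.60, and without Mavs-/- replicate 3 the editing-deficient mean was 4.58 nt higher. After adjustment all 6 exact permutation p-values were 0.70. With 3 libraries against 3 the test cannot give a p under 0.10, so these comparisons could not have passed 0.05. In whole liver, fewer cells of a type and less RNA per cell cannot be told apart.

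Most of these peaks did not lie in a 5′ UTR alone. The median peak had 54.6% of its bases in annotated 5′ UTRs, with 191 of 800 (23.9%) lying wholly inside and 72 (9.00%) touching a 5′ UTR by fewer than 10 bases. Coding bases were overlapped by 359 peaks (44.9%), and 337 (42.1%) covered a start codon. Since transcripts of a gene differ in their start codon, a base can be 5′ UTR in one transcript and coding in another, and 725 peaks (90.6%) held at least 1 base of 5′ UTR that was coding in no transcript. Peak lengths ran from 45 to 2201 nt.

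A summit within 100 nt of the start codon was found for 56.2% of the 5′ UTR peaks in editing-deficient replicate 1, for 24.6% in Mavs-/- replicate 3 and for 36.7% to 49.0% in the other 4 libraries. The overlap with a 5′ UTR by which the peaks were chosen itself limits this distance. The median distance from the summit to the nearest start codon of the overlapped transcripts, in spliced nucleotides and negative upstream, was 5, -76.5 and -103 nt in the editing-deficient replicates and -56, -82 and -175.5 nt in the Mavs-/- replicates. Editing-deficient replicate 1 was the only one with a median on the coding side, and Mavs-/- replicate 3 was the farthest upstream. The mean of these medians was -58.2 ± 56.3 nt (SD, n = 3) for the editing-deficient and -104 ± 62.8 nt for the Mavs-/- libraries, with an exact permutation p of 0.50. The difference between these means was 46.3 nt, and 10.8 nt without Mavs-/- replicate 3. A start codon was covered by 70.5% of the 5′ UTR peaks in editing-deficient replicate 1, by 27% in Mavs-/- replicate 3, and by 40.4% to 49.0% in the other 4 libraries. The genotypes overlapped in this share too, with 50.7% ± 17.1 against 40.6% ± 11.9 (SD, n = 3 each, exact permutation p = 0.60), and the difference was 3.36 points without Mavs-/- replicate 3. A summit that lay in no exon of these transcripts, as for 7 to 70 peaks per library, was measured in genomic bases.

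**Figure D2:**
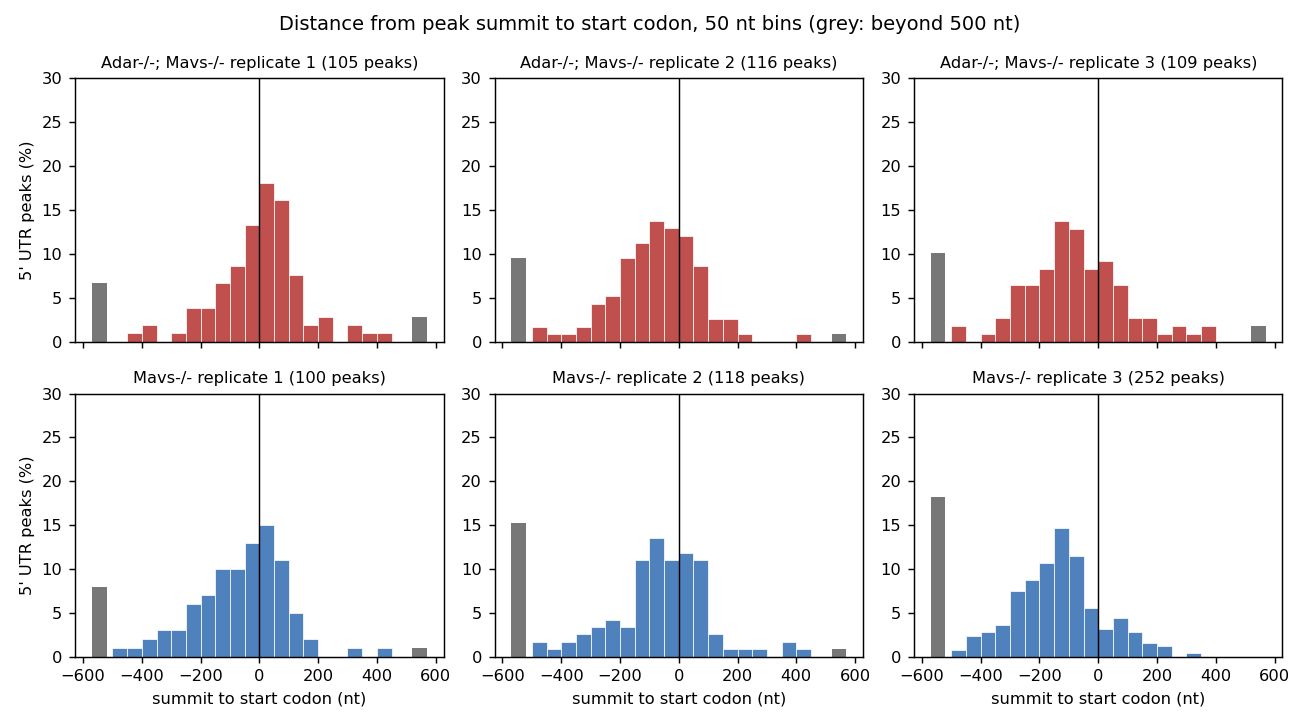
Distance from the summit of each 5′ UTR peak to the start codon in bins of 50 nt (x axis, negative upstream), as a percentage of the 5′ UTR peaks of each RNase-only library (y axis), with peaks beyond 500 nt in grey. The distribution was centred on the coding side in editing-deficient replicate 1 (median 5 nt) and lay farthest upstream in Mavs-/- replicate 3 (median -175.5 nt).

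5′ UTR peaks were richer in GC and had a lower predicted folding energy than coding exon peaks. The median GC content of their exonic bases was 56.1%, 65.0% and 74.3% in the editing-deficient and 61.2%, 66.5% and 84.4% in the Mavs-/- replicates 1 to 3, against 50% to 53.3% for RNase-only peaks in coding exons outside 5′ UTRs. They were higher in 6 of 6 libraries, by 17.2 ± 9.07 percentage points (SD, n = 6, exact permutation test of signs, p = 0.031, adjusted p = 0.0469). Without Mavs-/- replicate 3 the difference was 14.5 points, and 5 libraries cannot give a p under 0.0625. The minimum free energy of 100 nt around the summit, predicted with ViennaRNA, had a median of -0.363 ± 0.0861 kcal/mol per nt (SD, n = 6) against -0.229 ± 0.00946 for the coding exon peaks, and was lower in 6 of 6 libraries (exact permutation p = 0.031, adjusted p = 0.0469), with a mean difference of -0.134, or -0.106 without Mavs-/- replicate 3. Annotated 5′ UTRs are themselves GC-rich, with a median of 59.8% over 20916 genes, 65.0% over genes with an input peak, and 71.6% over the 407 genes with a 5′ UTR peak. Whether the peaks exceed what the 5′ UTRs of their own genes hold was not tested. Predicted folding energy falls as GC content rises, and no sequence matched in GC was folded. The energy difference was therefore not separated from the GC difference.

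The CGGCGG run, the 6-letter motif capitalized above, was searched on the RNA strand in the 100 nt around the summit, together with its reverse complement CCGCCG, copies being allowed to overlap. CGGCGG was present in 9.18% to 51.1% of the 5′ UTR peaks per library (mean 26.2% ± 13.7, SD, n = 6, and 21.2% ± 6.86, n = 5, without Mavs-/- replicate 3), lowest in editing-deficient replicate 1 and highest in Mavs-/- replicate 3, and in 0.788% to 9.42% of coding exon peaks. In 100 nt centred on the start codon of all genes with enough sequence it was present in 1509 of 18079 (8.35%). In the 100 nt upstream of the start codon it was present in 1388 of 14082 (9.86%). CCGCCG was present in 4.08% to 40.7% of the 5′ UTR peaks, in 6.83% of the gene windows centred on the start codon and in 8.85% of those upstream. The gene windows were not matched to the peaks in GC content. Where the summit lay in 5′ UTR bases alone, CGGCGG was present in 24.2% to 52.0% of the peaks.

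MDA5-protected peaks overlapped 5′ UTR peaks more often than all other RNase-only peaks pooled, but on average less often than intronic RNase-only peaks. RNase-only peaks arose without MDA5, so such an overlap does not by itself show that MDA5 bound or protected the RNA. The paper removed RNase-resistant stretches from its MDA5 peaks, whereas the MDA5-protected peaks were used here as deposited. The overlap with the MDA5-protected library of the same genotype and number was 19.0%, 30.2% and 45.9% in the editing-deficient and 24.0%, 34.7% and 20.6% in the Mavs-/- libraries, and for all other RNase-only peaks it was 6.76% to 27.9%. The 5′ UTR peaks were above the others in 6 of 6 libraries, by 10.0 ± 6.80 percentage points (SD, n = 6, exact permutation p = 0.031, adjusted p = 0.0469). Without Mavs-/- replicate 3 the difference was 11.6 points. It was -0.804 points when only peaks with an area of at least 1000 were kept (exact permutation p = 0.94), and at equal numbers of peaks per library it was 7.97 points with an exact p of 0.0625. The genotypes had 31.7% ± 13.5 in the editing-deficient against 26.5% ± 7.37 in the Mavs-/- libraries (SD, n = 3 each, exact permutation p = 0.70), and differed by 2.32 points without Mavs-/- replicate 3. Read from the other side, 36.6% to 47.9% of the 41 to 113 MDA5-protected peaks in 5′ UTRs of each library met an RNase-only peak. In the MDA5-protected libraries, 39 to 103 further peaks per library lay over a 5′ UTR on the opposite strand, about as many as on the transcript's strand.

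The overlap with MDA5-protected peaks followed the place of the summit. Where the summit lay in 5′ UTR bases alone, 37.7% ± 13.4 of the peaks (SD, n = 6) met an MDA5-protected peak, and where it lay in coding bases, 8.58% ± 4.90 did. The first was higher in 6 of 6 libraries, by 16.3 to 42.9 percentage points, a split that was chosen after the values were seen and was not tested. Coding exon peaks outside 5′ UTRs stood at 11.2% ± 2.57, and 3′ UTR peaks at 2.86% ± 2.74. Intronic peaks reached 31.5% ± 9.38, compared with 29.1% ± 10.1 for all 5′ UTR peaks (SD, n = 6), a difference that was not tested. Per library, the intronic share was 14.9%, 40.5% and 38.6% in the editing-deficient and 36.0%, 30.8% and 28.1% in the Mavs-/- replicates. Against these shares, the 5′ UTR peaks were higher in some libraries and lower in others. The peaks with the summit in 5′ UTR bases alone were above the intronic peaks in 4 libraries of 6. Input peaks overlapped 27 of the 800 peaks, or 3.87% ± 1.76 per library (SD, n = 6) compared with 1.87% ± 0.440 for the other RNase-only peaks (exact permutation p = 0.0625). The area percentile within the library, where 100 is the largest area, was 49.8 ± 3.10 in the median for 5′ UTR peaks and 50 ± 0.163 for the others (SD, n = 6, exact permutation p = 0.91).

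Of the 430 regions, 258 (60%) had a peak in 1 RNase-only library, 51 in 2, 35 in 3, 23 in 4, 34 in 5 and 29 in all 6 (6.74%). Over all 13868 merged RNase-only regions, 3.5% were found in all 6. Mavs-/- replicate 3 alone supplied 168 of the 258 regions with 1 library (65.1%). Those 168 regions had a median GC content of 85.0% at the summit, and 45.8% of them met an opposite-strand RNase-only peak. The other 262 regions had a peak in another library, 42 of them in all 5 others, with a median GC content of 61.0% and an opposite-strand peak at 16.0%.

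**Figure D3:**
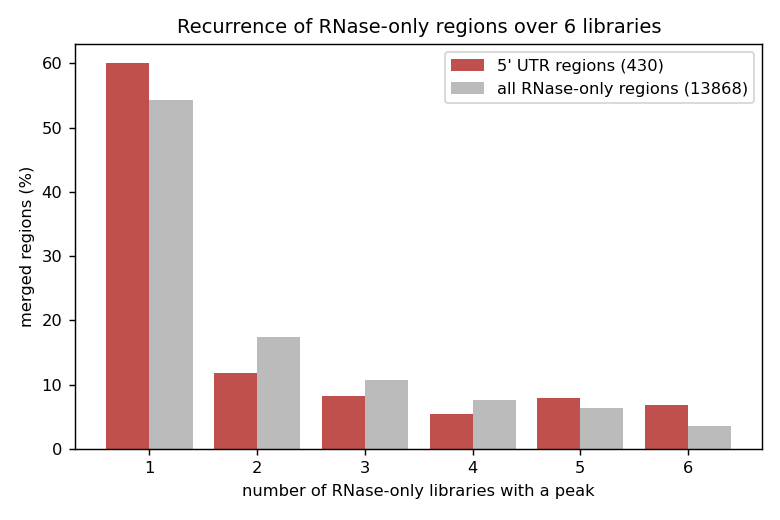
Number of RNase-only libraries with a peak (x axis, 1 to 6) and the percentage of merged regions (y axis), for the 430 regions in 5′ UTRs and for all 13868 RNase-only regions. In 5′ UTRs 60% of the regions were found in 1 library and 6.74% in all 6, against 54.3% and 3.5% over all regions.

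An MDA5-protected peak was present at 14.7% of the regions with 1 library, at 40.4% of those with 2 to 4 and at 60.3% of those with 5 or 6. Counted over the 5 libraries other than Mavs-/- replicate 3, it was present at 23.4% of the 107 regions with 1 library, at 38.3% of the 81 with 2 or 3 and at 56.8% of the 74 with 4 or 5. The median GC content fell from 82.0% to 70.0% and 58.0% with all 6 libraries, but was 63.0%, 66.5% and 58.0% in the same 3 bins without Mavs-/- replicate 3, where there was no steady fall. The values without that library were added after the data were seen. CGGCGG was present at 39.0%, 25.3% and 22.4% of the regions with all 6 libraries, and at 23.9%, 20% and 18.6% without it, both computed over regions with the summit in an exon. A start codon was covered by 39.1%, 43.1% and 55.6% with all 6 libraries, and by 58.9%, 43.2% and 56.8% without it, which gives no order. Since a region with more libraries has more peaks to draw from, these shares are descriptions.

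The 63 regions in at least 5 libraries parted by their MDA5 overlap. An MDA5-protected peak was present in all 6 MDA5-protected libraries at 14 regions, none of which covered a start codon and all of which had the summit upstream of it. Their GC content at the summit ran from 79.0% to 87.0% in the 7 that had the summit in an exon. In contrast, 42 regions met a peak in 2 MDA5-protected libraries or fewer, 32 of them over a start codon and 24 with the summit in coding bases, at a median GC content of 57.0%. The plot of GC content against MDA5 support shows that low-GC regions with many MDA5-protected libraries were rare.

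**Figure D4:**
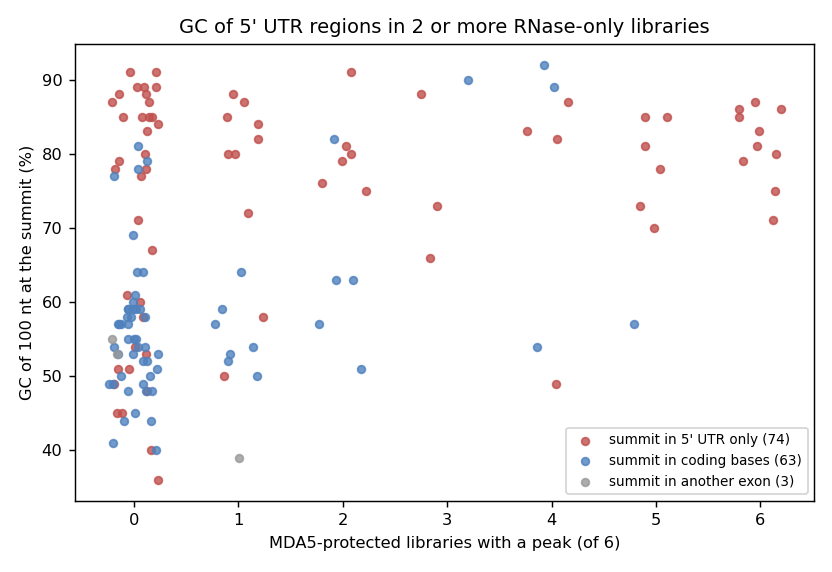
GC content of the 100 nt around the summit (y axis, percent) against the number of MDA5-protected libraries with an overlapping peak (x axis, points spread sideways for view), for 5′ UTR regions in at least 2 RNase-only libraries with an exonic summit. Regions with 6 MDA5-protected libraries lay between 71.0% and 87.0% GC, and regions with none between 36.0% and 91.0%.

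Regions with MDA5-protected peaks in all 6 libraries are given first. Mpped1, a member of the metallophosphoesterase family, had the best mean area rank (7.67) at chr15:83779986-83780216, with area percentiles of 99.9, 99.9 and 99.9 in the editing-deficient and 99.9, 99.6 and 99.8 in the Mavs-/- replicates. Memo1, named for its part in cell motility downstream of the receptor ErbB2, followed at chr17:74294806-74294915, with percentiles of 99.9, 99.8 and 99.8 and of 99.9, 99.6 and 99.4. Both regions had the summit outside the exons of the overlapped transcripts, and both had peaks in all 18 libraries, input included. Mpped1 also had an opposite-strand peak in 6 of 6 RNase-only libraries. Suv39h1, a histone methyltransferase that modifies lysine 9 of histone H3, was the only other region of the 29 with an input peak.

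Atp1b3, a beta subunit of the sodium and potassium pump, had the best area rank among the regions that were in all 6 RNase-only and all 6 MDA5-protected libraries and had no input peak. Its percentiles were 86.0, 91.8 and 92.9 in the editing-deficient and 91.0, 91.7 and 95.6 in the Mavs-/- replicates, so that the genotypes overlapped. The whole peak lay in the 5′ UTR, 217 nt upstream of the start codon, at 86.0% GC. Kcnmb4, an accessory subunit of a calcium-activated potassium channel, had percentiles of 27.8, 87.7 and 93.7 and of 81.6, 91.9 and 87.0, with the summit 104 nt upstream at 80.0% GC. Editing-deficient replicate 1 was low for Kcnmb4 and also for Samd5, a gene with a SAM domain, which had percentiles of 52.4, 79.6 and 83.3 and of 78.3, 85.5 and 88.5. Opposite-strand RNase-only peaks met all 3 regions, in 3 libraries of 6 for each.

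Others of this kind, named after their values were seen, were Kif13a, a kinesin motor (summit 84 nt upstream, 85.0% GC), Fam69a (60 nt upstream, 81% GC) and Mmp17, a membrane-type metalloproteinase (75 nt upstream, 83.0% GC). An opposite-strand RNase-only peak met the Kif13a region in 5 libraries of 6 and the other regions in none. Of the 174 bases of the Kif13a region, 59 were 5′ UTR. Kif13a varied from the 19.7 percentile in Mavs-/- replicate 1 to 91.8 in Mavs-/- replicate 3, and Fam69a from 23.3 to 95.3 in the same libraries. Neither separated the genotypes. Nrf1, the nuclear respiratory factor, was absent from editing-deficient replicate 1 and stood between the 89.9 and 93.2 percentiles in the other 5.

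The regions with little MDA5 overlap held the longest peaks of the set. B3gnt7, a glycosyltransferase, had the longest region, 2288 nt at chr1:86304994-86307281, with percentiles of 99.6, 99.7 and 94.9 in the editing-deficient and 98.9, 98.2 and 95.5 in the Mavs-/- replicates. Misp, a protein that positions the mitotic spindle, had 1775 nt at chr10:79825661-79827435 and percentiles of 99.5, 99.5 and 98.9 and of 99.5, 99.0 and 92.4. Prr15l had 1188 nt at chr11:96934513-96935700, with percentiles of 99.3, 97.2 and 98.9 and of 94.8, 97.2 and 98.4, and no MDA5-protected peak. Only 340, 55 and 31 bases of these 3 regions were 5′ UTR, and their summits lay 1763, 1514 and 875 nt downstream of the start codon. They belong to the set only through the bases of a long peak that reach into the 5′ UTR.

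Among the other strong regions, Hoxb13, a homeobox factor of the hindmost body axis, had percentiles of 98.9, 98.6 and 96.4 and of 98.4, 94.9 and 93.2. Sycn, syncollin of secretory granules, stood between 94.5 and 98.3 in all 6 libraries and was the only coding-side region of the 29 with 5 MDA5-protected libraries. Cldn7, a claudin of epithelial tight junctions, stood between 91.0 and 97.4 at the region shown above. Krt19, a keratin of simple epithelia, stood between 89.1 and 95.9 and met MDA5-protected peaks in 4 libraries. Smim6, a small membrane protein, stood between 84.4 and 98.4. Kcne3, a subunit of potassium channels, had percentiles of 98.7, 94.9 and 96.5 in the editing-deficient and 88.8, 87.6 and 85.8 in the Mavs-/- replicates, so that the genotypes did not overlap there.

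Among further regions without any MDA5-protected peak were those of Cdx1, Reg4 and Ppp1r1b. Smim6, Gpx2, Saa1 and a second Cldn7 region, also in all 6 RNase-only libraries, had none either. Cdx1, a homeobox factor of the intestine, had percentiles of 95.5, 93.1 and 89.5 and of 85.1, 84.4 and 32.4, with Mavs-/- replicate 3 far below the rest. Reg4, a secreted lectin, had percentiles of 88.2, 70.3 and 72.4 and of 84.0, 80.9 and 39.0. Ppp1r1b, an inhibitor of protein phosphatase 1, had percentiles of 90.0, 88.4 and 75.8 and of 62.8, 78.5 and 34.0. Mavs-/- replicate 3 was the lowest of the 6 for Cdx1, Reg4 and Ppp1r1b. Klk1, a tissue kallikrein, had 2 regions in all 6 libraries, and reads of its many close paralogs may be hard to assign.

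**Figure D5:**
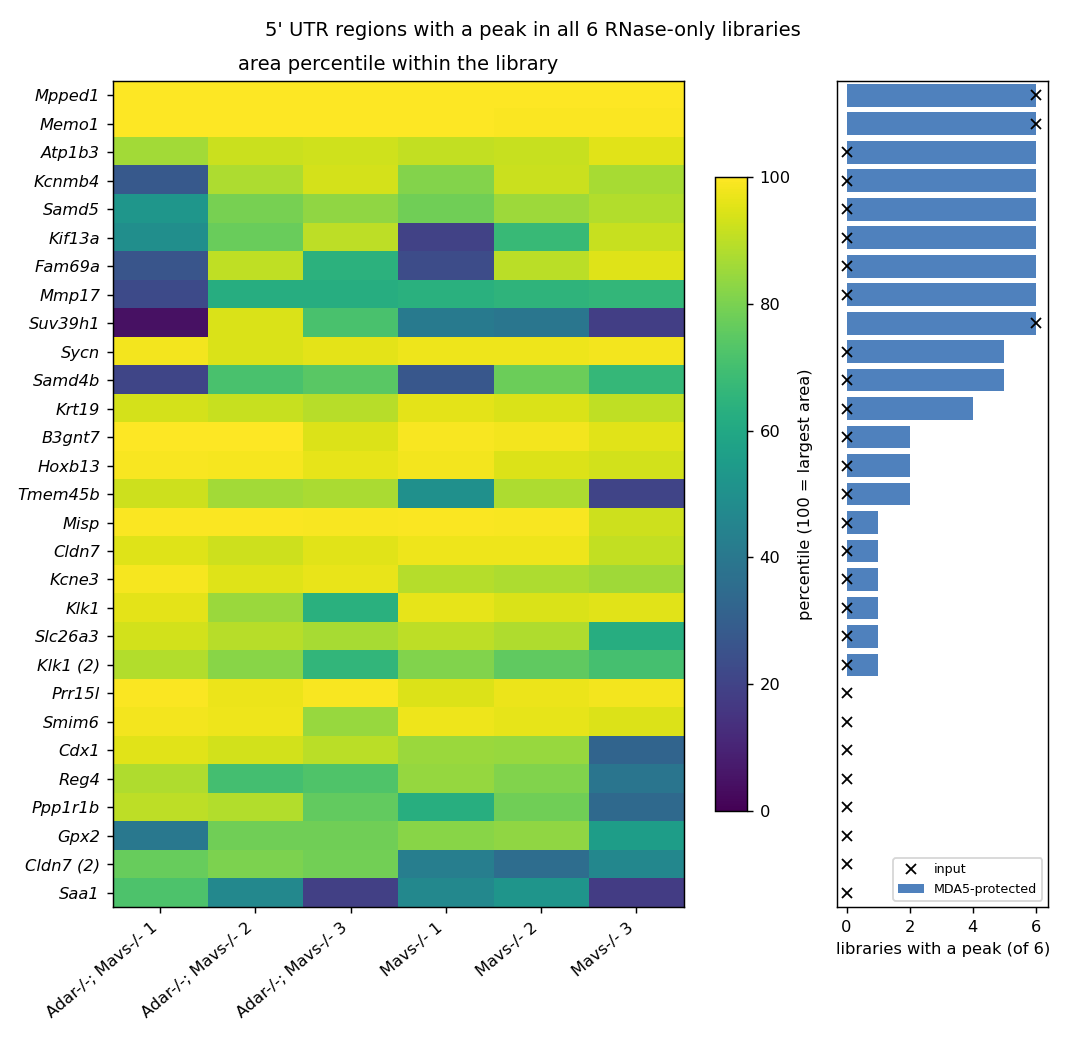
Area percentile within each RNase-only library (color, 100 is the largest area) for the 29 regions found in all 6, ordered by the number of MDA5-protected libraries with a peak (bars), with crosses for the number of input libraries with a peak. Mpped1, Memo1 and Suv39h1 had peaks in 6 input libraries and the other 26 in none.

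The area percentile of the 29 regions was compared between genotypes without a test. The percentile was higher in every editing-deficient than in every Mavs-/- library at 4 regions (Mpped1, Kcne3, Cdx1 and the second Cldn7 region) and lower in every one at 1 region (Mmp17). Over all 485 RNase-only regions in 6 libraries, 10.1% were higher in this way and 2.89% were lower. The second Cldn7 region, at chr11:69966932-69967105, had percentiles of 76.6, 80.3 and 78.6 in the editing-deficient and 42.7, 35.8 and 46.2 in the Mavs-/- replicates, without overlap. For Mpped1 the means were 99.9 and 99.8, a difference of 0.137 percentile points.

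Regions in all 3 libraries of 1 genotype and in none of the other numbered 4, and 10 when Mavs-/- replicate 3 was left out and 2 Mavs-/- libraries stood for the genotype. The editing-deficient libraries had 1 such region of 430, in Serpinb1a, an inhibitor of neutrophil proteases, against 1.73% of all RNase-only regions in that direction. Its percentiles were 12.7, 55.5 and 68.5, the summit lay 50 nt inside the coding sequence and 8 bases of the region were 5′ UTR. The Mavs-/- libraries had 3, against 0.288% of all RNase-only regions. They were Tcf7l1, a transcription factor of Wnt signaling, with percentiles of 62.5, 0.157 and 87.7, Chd7, a chromatin remodeler, with 44.9, 54.3 and 38.3, and Khdrbs3, an RNA-binding protein, with 27.4, 11.8 and 67.2. The Khdrbs3 region, chr15:68928532-68928662, lay wholly in the 5′ UTR, 86 nt upstream of the start codon, and its summit had 91.0% GC. The regions of Tcf7l1, Chd7 and Khdrbs3 met MDA5-protected peaks in 2, 3 and 2 libraries. Opposite-strand RNase-only peaks met them in 0, 5 and 1 libraries of 6. At Chd7, editing-deficient libraries therefore had a peak on the other strand, and its absence from them holds for 1 strand only. The Chd7 summit lay in an intron, and 40 of the 174 bases of the region were 5′ UTR.

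Regions found in 5 of 6 libraries were mostly missing from the same 2. Editing-deficient replicate 1 was the one without a peak at 15 of the 34, among them Nrf1, Ap1ar, Tent4a and Cul3, with a median GC content of 78.5% over the 8 with an exonic summit and a start codon covered at 2. Mavs-/- replicate 3 was the one without a peak at 13, among them Gpa33, Tspan8, Cela1 and Rab25, with a median GC content of 57.0% and a start codon covered at 12. An MDA5-protected peak was present in at least 3 libraries at 7 of the first 15 and at none of the second 13. The same split over all 883 RNase-only regions in 5 libraries was not computed. Mavs-/- replicate 3 had the shortest list, so the counts are not read as a trait of 5′ UTRs.

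Of the 60 genes with a region in at least 5 libraries, 14 (23.3%) had an input peak in an exon, near the 19.5% over all 21978 genes (4292). The share was higher for the wider sets, with 150 of all 407 genes (36.9%) and 1357 of 2996 genes that had any exonic RNase-only peak (45.3%). The host genes of 24 of the 29 regions in all 6 libraries had no input peak. The peaks of digested libraries had been called against the input, which leaves RNA that is abundant in the input with fewer peaks.

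The labelled tissue was checked against markers. All 6 hepatocyte markers (Alb, Apoa1, Ttr, Serpina1a, Cps1 and Fgb) had exonic peaks in every input library and no exonic peak in any RNase-only or MDA5-protected library. The 5 erythroid, 5 macrophage and 4 endothelial markers likewise had no exonic RNase-only peak. Of 3 cholangiocyte markers, Krt19 and Epcam had exonic RNase-only peaks in all 6 libraries and none in the input, whereas Spp1 had input peaks in 3 libraries and no RNase-only peak. Of 3 stellate markers, 2 had exonic RNase-only peaks, in no more than 2 genes per library, and 2 had input peaks.

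Since names such as Cdx1, Slc26a3 and Cldn7 are known from the intestine, a list of 25 genes of large intestine epithelium was drawn up after these values were seen, and is a description only; it shares Krt19 and Epcam with the cholangiocyte markers. Exonic RNase-only peaks were present for all 25 genes in editing-deficient replicate 1 and for 21 to 23 in the other 5 libraries, MDA5-protected peaks for 8 to 17, and input peaks for 1 to 3. Over all 21978 genes, 2996 had an exonic RNase-only peak in at least 1 library, and the share per library was not computed. In a list of 8 genes of visceral smooth muscle, 6 to 7 had exonic RNase-only peaks in each library, and at most 1 had an input peak. In contrast, 0 to 3 of 12 small intestine genes and none of 7 exocrine pancreas genes had RNase-only peaks. These lists too were drawn up after the values were seen, and their counts depend on the members picked. Cela1, of the same family as Cela2a and Cela3b in the pancreas list, was not in it and had a 5′ UTR region in 5 libraries. Sycn of secretory granules was not in it either and had a region in all 6. The large intestine genes carried 15 of the 430 regions in 5′ UTRs, 8 of the 63 in at least 5 libraries and 7 of the 29 in all 6 (Hoxb13, Krt19, Slc26a3, Cdx1, Reg4 and 2 of Cldn7). A 5′ UTR region was present for 12 of the 25 genes, against 1.85% of all 21978 genes, in a list drawn up with these regions known. Of the 15 regions, 13 covered a start codon. Over all 430 regions this was so for 39.1% of those with 1 library, 43.1% with 2 to 4 and 55.6% with 5 or 6. The part of RNA from another tissue in these results was not tested.

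Of all 21978 genes, 1.85% had a 5′ UTR region and 0.273% had one in at least 5 libraries. The plan had set the lists beside the genes with an input peak, of which 150 of 4292 had a 5′ UTR region. That share is the higher one, and most lists hold mainly genes with an input peak. These shares are the background for the counts that follow, and at them most lists are too short for a count of 0 to stand apart. None of the 6 mRNAs with an iron-responsive element, a stem-loop that binds the iron regulatory proteins, had a 5′ UTR region, although all 6 had an input peak and 4 had an exonic RNase-only peak. None of 13 mRNAs with regulatory upstream open reading frames had one. A list of 103 genes stood for mRNAs with a 5′ terminal oligopyrimidine tract. Most were picked by a ribosomal protein name, and the tract itself was not checked. Of the 103, Rpl36al and Rplp1 had a region in 1 library each. Of 79 respiratory chain genes Cox4i1 had a region in 1 library, and none of 16 chaperones of the endoplasmic reticulum or 28 translation initiation factors had one. Among 70 genes of secreted plasma proteins, 66 with an input peak, Saa1, an acute phase protein, was the only one with a region. It lay in all 6 libraries, held 1 base of 5′ UTR and had percentiles of 72.1, 46.9 and 19.0 and of 46.5, 52.1 and 17.8, and its reads may be hard to tell from those of its close paralogs. Of 34 genes for double-stranded RNA binding and the interferon response, Ifih1, which encodes MDA5, had a region in 1 library.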

How the data were processed

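Deposited peak lists of 18 libraries were used, with groups taken from the genotype and fraction labels and every library kept. The study states biological triplicates. Per the labels and the study's methods, the authors used Trim Galore 0.6.6 for trimming and Genrich 0.6.1 for peaks on GRCm38, called per library and strand against input of the same genotype (adjusted P of at most 0.01, area of at least 500, gaps of at most 20 bp). The deposited score of a peak is its area, which grows with depth and was therefore used as a rank within a library. The deposited −log10 P and −log10 adjusted P of the authors were used only in an alternative. No read counts are given, so depth and counting error are unknown.

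5′ UTRs came from 50527 of 58883 protein_coding transcripts of GENCODE M21, with an overlap of at least 1 bp on the same strand. Distances used the transcript with the nearest start codon. Merged regions are overlapping or touching peaks. GC content and folding energy (ViennaRNA 2.7.2, 100 nt) came from spliced transcript sequence in place of the genomic windows that were planned, so that peaks with the summit in no exon have neither. The classification code was run on peaks planted in the same annotation, where 200 of 200 planted 5′ UTR peaks were found and 388 of 388 planted coding peaks left out. Planted coding peaks that met a 5′ UTR were dropped beforehand. Correct code could give no other result, so the run checks the code and not the accuracy of the classes. Two-sided exact permutation tests were run, of 3 libraries against 3 between genotypes and of the signs of 6 differences within libraries, adjusted by Benjamini-Hochberg over 6 comparisons each. No peak was identical between any 2 libraries.

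Regions named in the text were the 12 with the best mean area rank among those in all 6 libraries, up to 4 per direction found in 1 genotype only, members of the gene lists in at least 2 libraries, the 5 best ranked with MDA5-protected peaks in all 6 and in none of those libraries, and the 3 longest; others are said to be chosen after their values were seen, as are the genes listed as absent from 1 library. The sequences of Fam69a, Nrf1, Slc26a3 and Tmem45b were likewise chosen so. The members, the lists and the tests were chosen with earlier results of these data known. Alternatives are given in the closing section. Added after seeing the data were 5′ UTR bases that code in no transcript and the removal of peaks paired on the opposite strand. Python 3.11.15, numpy 2.4.6 and scipy 1.17.1 were used.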

Additional observations from a re-analysis of the deposited data

Results flagged for a closer look

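Peaks over a 5′ UTR on the strand opposite to the transcript belong to no comparison of the report, and were picked out where their share of the library exceeded the highest input library (1.17%). In the RNase-only libraries this was so for editing-deficient replicate 3 at 1.23%, Mavs-/- replicate 2 at 1.73% and Mavs-/- replicate 3 at 8.83%. In the MDA5-protected libraries it was so for all 6, at 2.38%, 3.00% and 3.59% in the editing-deficient and 3.17%, 5.49% and 7.54% in the Mavs-/- replicates. What these peaks are was not tested.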

How the results depend on the processing

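Of 219 recomputed values over 14 results, 162 kept their direction and their side of the threshold or stayed within 1.5 times a count. With the summit required in the 5′ UTR, the difference in input overlap became -0.0226 points, the share against input -1.87 points, 13 regions were in all 6 libraries and 2 were exclusive to a genotype. With most of the peak (0.5 of its bases or more) in 5′ UTRs these were -0.441, -1.63, 13 and 1. With areas of at least 1000 the genotypes differed by 4.00 peaks and by -4.42 points of MDA5 overlap, the MDA5 overlap of 5′ UTR minus other peaks was -0.804 points and the area percentile 0.894, with 12 and 2 regions. At equal numbers of peaks (3150) the MDA5 difference was 7.97 points, and with a peak in any of the 3 libraries 8.26 points (input 2.198). Ignoring the strand gave -6.70 points against input. Without peaks paired on the opposite strand the input difference was 1.89 and the area percentile 0.650. With all peaks kept, the area percentile difference was 2.03 in the editing-deficient libraries alone. An adjusted P of at most 0.001 removed nothing.

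Leaving out each replicate in turn gave, for editing-deficient minus Mavs-/-, -75.0 to 1.00 peaks, -3.66 to -0.553 points of share, -22.2 to 4.58 nt of length, 0.291 to 15.3 points over a start codon, 10.8 to 70.6 nt of distance and -1.85 to 11.6 points of MDA5 overlap. Within libraries it gave 8.45 to 11.6 points (MDA5), 1.59 to 2.51 (input), -1.05 to 0.737 (area percentile), 14.5 to 19.5 (GC), -0.152 to -0.106 kcal/mol per nt and -9.38 to -7.77 points (against input), where 5 libraries cannot pass 0.05. Regions in every library numbered 29 to 44 and genotype-exclusive ones 5 to 16.

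Same-numbered libraries of the genotypes deviated together with r = 0.197, 0.0760 and 0.229 over regions, each library correlating best with its own number, but not every pair passed 0.1 and the numbers were not taken as pairs. With the replicate block the exact p-values were 0.25 to 1.00 and no call changed, for example -46.7 peaks (p = 0.75).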

Other observations

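Ifih1, which encodes MDA5 itself, had exonic peaks in all 6 MDA5-protected and in 5 RNase-only libraries and in none of the input libraries. Per the paper, the recombinant MDA5 was made in E. coli from mouse MDA5 cDNA. The part of sequence from that construct in the Ifih1 peaks was not tested. Epcam, a marker of epithelia, had exonic peaks in all 6 RNase-only and all 6 MDA5-protected libraries, but its 5′ UTR region was found in 1 library.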
